A study of Mus musculus with 2 samples.

Results

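The proteasome genes described here are 41 of the 22597 genes in the count matrix. They are the genes whose symbols begin with Psma, Psmb, Psmc, Psmd or Psme, without the immunoproteasome subunits Psmb8, Psmb9 and Psmb10, that had at least 20 unique molecular identifiers (UMIs) over the hashtag-assigned cells. Of 42 such symbols, 1, Psmb11, fell below that minimum with 1 UMI. The 41 comprise 31 structural subunits, 14 of the 20S core particle and 17 of the 19S regulatory particle, with 3 assembly chaperones of the 19S base, 4 activator genes, a paralog of an activator gene, a testis alpha subunit and Psmc3ip. Psmc3ip encodes a meiotic recombination protein named for its binding to Psmc3, and is no subunit.

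The cells came from the lungs of chimeric mice. Irradiated CD45.1+CD45.2+ IM-DTR hosts, in which diphtheria toxin depletes interstitial macrophages, had received CD45.1-CD45.2+ bone marrow that was either LyzM-Cre Tgfbr2 fl/fl (the Tgfbr2-KO pool, hashtag B0303) or Tgfbr2 fl/fl without Cre (the control pool, hashtag B0301). All mice were given 50 ng of toxin 10 days before sacrifice, so irradiation, transfer, the floxed receptor alleles and the toxin were shared by both groups. LyzM-Cre acts in myeloid cells, and the host DTR allele marks the depleted cells and not the donor cells that were profiled. CD11b+CD64+ SSClo donor cells without Ly6G or SiglecF were sorted, from 5 mice pooled per genotype, labelled with the hashtag of their genotype, and put through 1 droplet 3′ RNA library with 1 hashtag library. There is thus 1 pool per genotype and no replicate: no test was made, and every interval covers counting error only, not the spread between mice.

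The 20S core particle is a barrel of stacked rings in which the outer alpha rings gate access to the proteolytic sites of the inner beta rings. The 19S particle caps the barrel, binds ubiquitin chains, removes them, unfolds the substrate and feeds it in, whereas the PA28 activator made of Psme1 and Psme2 opens the gate without using ubiquitin or ATP. Interferon-gamma is known to induce PA28 and the immunoproteasome subunits, which replace the constitutive catalytic subunits and alter the peptides loaded on MHC class I in macrophages and other antigen-presenting cells.

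Promoter sequences were looked up to show what lies upstream of some of the members. RefSeq windows of GRCm38.p6 were held for 34 of the 41 members, 25 of them structural subunits. The 250 bases before the transcript start were searched on both strands for 4 motifs: GAAANNGAAA, a core of interferon response elements, TTCNNNGAA, the palindrome bound by STAT factors, TGACNNNGC, the core of antioxidant response elements, and the CCAAT box. Psme1 and Psme2 are shown as the activator pair with the highest ratios, Psmb3 and Psmb5 as 20S subunits holding matches, and Psmd11 as the subunit with the lowest ratio. Capitals mark motif matches on either strand, and the sequences run 5′ to 3′ on the gene's strand.
Psme1, chr14:55578244-55578493, plus strand: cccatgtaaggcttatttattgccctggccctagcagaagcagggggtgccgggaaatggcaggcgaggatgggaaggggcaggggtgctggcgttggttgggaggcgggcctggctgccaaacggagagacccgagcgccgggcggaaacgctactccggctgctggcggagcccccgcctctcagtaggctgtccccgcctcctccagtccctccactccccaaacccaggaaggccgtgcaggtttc
Psme2, chr14:55591102-55591351, minus strand: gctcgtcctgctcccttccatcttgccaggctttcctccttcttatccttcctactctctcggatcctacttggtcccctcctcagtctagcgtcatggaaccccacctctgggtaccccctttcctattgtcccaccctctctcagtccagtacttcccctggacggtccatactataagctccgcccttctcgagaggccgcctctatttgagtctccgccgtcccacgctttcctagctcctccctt
Psmb3, chr11:97703184-97703433, plus strand: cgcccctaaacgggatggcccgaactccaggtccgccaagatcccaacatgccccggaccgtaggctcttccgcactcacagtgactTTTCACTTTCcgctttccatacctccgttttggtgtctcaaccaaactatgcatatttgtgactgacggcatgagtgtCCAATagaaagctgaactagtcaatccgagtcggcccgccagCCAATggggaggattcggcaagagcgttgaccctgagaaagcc
Psmb5, chr14:54617996-54618245, minus strand: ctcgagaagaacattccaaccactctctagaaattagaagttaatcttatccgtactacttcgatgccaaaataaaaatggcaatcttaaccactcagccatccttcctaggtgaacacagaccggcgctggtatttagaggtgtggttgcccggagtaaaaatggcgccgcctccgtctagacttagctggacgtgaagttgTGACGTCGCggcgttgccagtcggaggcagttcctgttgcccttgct
Psmd11, chr11:80428365-80428614, plus strand: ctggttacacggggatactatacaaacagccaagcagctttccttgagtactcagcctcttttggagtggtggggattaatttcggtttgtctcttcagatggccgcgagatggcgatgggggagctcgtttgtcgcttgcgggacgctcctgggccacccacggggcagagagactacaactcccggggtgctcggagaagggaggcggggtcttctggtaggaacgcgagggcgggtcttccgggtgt

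The GAAANNGAAA motif was found upstream of 3 members, Psmb3, Psmd4 and Psmd9, and in 2.98% of all 32851 windows. TGACNNNGC was found for 5 members, Psmb5, Psmb6, Psmc6, Psmd12 and Psmd9, and in 10.2% of all windows. CCAAT was found for 13 members and in 33.8% of all windows, and TTCNNNGAA for 0 members and in 7.02% of all windows. No motif letters of these kinds were in the windows shown for Psme1, Psme2 and Psmd11, which says only that those letters are absent from 250 bases.

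After filtering, 2674 Tgfbr2-KO cells with 30729204 UMIs and 1896 control cells with 16298452 UMIs remained. The median cell held 10277.5 UMIs in the Tgfbr2-KO pool and 7785 in the control pool, and mitochondrial genes took 2.31% of UMIs in the Tgfbr2-KO pool and 2.91% in the control pool. At most 7.29% of Tgfbr2-KO and 0.962% of control UMIs could be free RNA. Tgfbr2 stood at 195 UMIs per 1000000 (UPM) in the Tgfbr2-KO pool and 215 UPM in the control pool; 3′ tags can lie outside the floxed exon, so these counts do not check the deletion. Lyz2, the locus that carries the Cre insertion, stood at 5949 UPM in the Tgfbr2-KO pool and 13282 UPM in the control pool. The C1q genes that mark the sorted macrophages summed to 10405 UPM in the Tgfbr2-KO pool and 11520 UPM in the control pool. The 5 interferon-activated markers (Cxcl9, Ly6a, Ly6i, Gbp2 and Iigp1) were all higher in the Tgfbr2-KO pool, at 2689 UPM in sum against 78.9 UPM in the control pool. The 7 classical monocyte markers summed to 1318 UPM in the Tgfbr2-KO pool against 473 UPM in the control pool, with 6 of 7 higher. Neutrophil markers stood at 142 UPM in Tgfbr2-KO against 58.0 UPM in control cells, with 8 of 10 higher and 1 at 0 in a pool. T and NK cell markers stood at 5.47 UPM against 0.982 UPM, with 8 of 8 higher and 3 at 0 in a pool, and structural lung markers at 137 UPM against 78.6 UPM, with 8 of 12 higher. The part of these other cells and of depth in the results over all cells was not tested.

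Over all cells, proteasome genes were higher in Tgfbr2-KO than in control cells, and unevenly so by role: PA28 genes differed most, then the 20S core, then the 19S particle. The 31 structural subunits summed to 4439 UPM (95% interval 4416 to 4463) in the Tgfbr2-KO pool and 3083 UPM (3056 to 3110) in the control pool, a ratio of 1.44 (1.43 to 1.45). The PA28 genes Psme1 and Psme2 summed to 835 UPM against 272 UPM, a ratio of 3.07 (2.97 to 3.17). The 14 subunits of the 20S core were 1.54-fold higher (1.52 to 1.56) and the 17 of the 19S particle 1.27-fold higher (1.253 to 1.296). The share of the structural UMIs that belonged to the 20S core was 66.1% (65.8 to 66.3) in the Tgfbr2-KO pool and 61.7% (61.2 to 62.1) in the control pool. These sums hold only genes with the symbol prefixes given above, so a subunit with another symbol is not in them. UPM is the number of UMIs of a gene or list, summed over the cells of a pool, per 1000000 gene UMIs of those cells; 3′ UMIs count molecules and are not divided by transcript length.

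Single genes were counted where both pools together held at least 100 UMIs, which 40 of the 41 members did; Psma8 held 51 and was left out of the counts. Of the 40, 13 were at least 1.5-fold higher in the Tgfbr2-KO pool, or 32.5%, where 11.9% of all 10237 genes counted were. Fewer passed under other weightings and scalings: as a mean over cells 5 of 40 were, or 12.5% against 11.5% of all genes, and under trimmed-mean scaling 6 of 40, or 15.0% against 9.68%. With gated states weighted equally 5 of 40 were, or 12.5% against 8.01% of all genes, without interferon-activated cells 7 of 40, or 17.5% against 10.6%, and in cells of 6000 to 10000 UMIs 4 of 38, or 10.53% against 6.85%. By the summed UMIs of the pools none was at least 1.5-fold lower, where 7.53% of all genes were. By a looser rule, 33 of the 40 were at least 25% higher, or 82.5%, against 27.0% of all genes, and 0 were at least 20% lower, against 15.7% of all genes. All 40 log2 ratios were above 0, as were 59.9% of those of all genes. The median log2 ratio was 0.47 for the members and 0.09 for all genes. Among the structural subunits, 14 of 14 of the 20S core and 12 of 17 of the 19S particle were at least 25% higher, and 8 of 14 and 0 of 17 at least 1.5-fold.

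**Figure D1:**
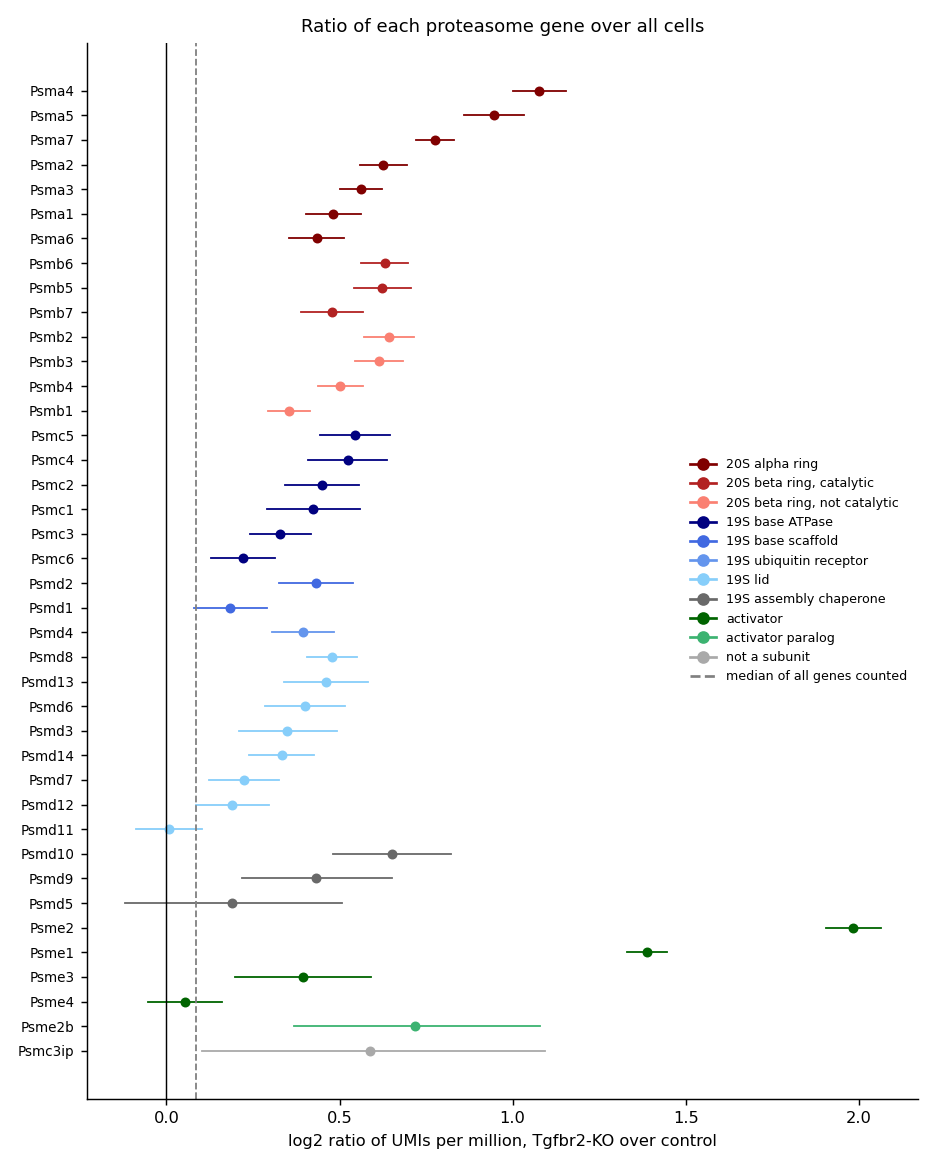
Log2 ratio of UPM, Tgfbr2-KO over control, for the 40 counted members over all cells, grouped by role. Points are ratios, bars exact 95% counting intervals, the solid line equal levels and the dashed line the median of all genes counted (0.09). Psme2 and Psme1 lie farthest to the right, the 20S subunits lie right of most 19S subunits, and Psmd11 and Psme4 lie near 0.

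The alpha ring, whose subunits form the gate and the docking surface for activators, held the widest range within the 20S core. Psma4 (ENSMUSG00000032301, chromosome 9) had 226 UPM in Tgfbr2-KO cells and 107 UPM in control cells, a ratio of 2.11 (2.001 to 2.22), the third highest of the members. Psma5 had 166 UPM against 86.0 UPM, a ratio of 1.93 (1.82 to 2.05). Psma7 had 374 UPM against 219 UPM, a ratio of 1.71 (1.65 to 1.78), and was the alpha subunit with most UMIs in both pools. Psma2 followed with 229 UPM against 148 UPM, 1.54-fold higher (1.47 to 1.62). The remaining alpha subunits were closer to the 19S genes: Psma3 was 1.48-fold, Psma1 1.40-fold and Psma6 1.35-fold higher. The intervals of Psma4 and Psma5 lay above those of the 5 other alpha subunits.

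The beta ring carries the proteolytic sites, and its subunits spanned a narrower range, from 1.28-fold to 1.56-fold higher. Psmb5, the chymotrypsin-like subunit (ENSMUSG00000022193, chromosome 14), had 155 UPM in Tgfbr2-KO cells and 101 UPM in control cells, a ratio of 1.54 (1.46 to 1.63). Psmb6, the caspase-like subunit, had 221 UPM against 143 UPM, a ratio of 1.55 (1.48 to 1.62). Psmb7, the trypsin-like subunit, had 119 UPM against 85.1 UPM, a ratio of 1.39 (1.31 to 1.48). All 3 catalytic genes were thus higher in the Tgfbr2-KO pool, Psmb7 by least. Of the subunits without a catalytic site, Psmb2 had 204 UPM against 131 UPM (1.56-fold, 1.49 to 1.64) and Psmb3, whose promoter is shown above, 206 UPM against 135 UPM (1.53-fold, 1.46 to 1.61). Psmb4 was 1.42-fold and Psmb1 1.28-fold higher, the lowest ratio of the 20S core.

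The 19S base holds the ATPase ring that unfolds substrates. Its 6 ATPase genes ran from 1.16-fold higher for Psmc6 to 1.46-fold higher for Psmc5, with Psmc4 at 1.44-fold, Psmc2 at 1.37-fold, Psmc1 at 1.34-fold and Psmc3 at 1.26-fold. Psmc5 had 95.8 UPM in Tgfbr2-KO cells and 65.7 UPM in control cells, while Psmc6 had 99.5 UPM against 85.4 UPM. These genes encode subunits of 1 ring, yet their intervals did not all overlap: that of Psmc5 began at 1.36 and that of Psmc6 ended at 1.24. Of the large scaffold subunits, Psmd2 had 82.9 UPM against 61.4 UPM (1.35-fold) and Psmd1 73.2 UPM against 64.4 UPM (1.14-fold, 1.06 to 1.22). Psmd1 was the third lowest of the 40. Psmd4, a ubiquitin receptor between base and lid, had 115 UPM against 87.2 UPM, a ratio of 1.31 (1.23 to 1.40).

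The lid removes ubiquitin from the substrate through Psmd14, its deubiquitinase, and includes the member with the least difference. Psmd14 had 102 UPM in Tgfbr2-KO cells and 81.2 UPM in control cells, a ratio of 1.26 (1.18 to 1.34). Psmd11, a lid subunit that contacts the 20S core, had 83.1 UPM against 82.8 UPM, a ratio of 1.005 (0.940 to 1.07), and so did not differ beyond counting error. Psmd8 stood highest in the lid, with 187 UPM against 134 UPM (1.39-fold, 1.33 to 1.46). The others were Psmd13 at 1.38-fold, Psmd6 at 1.32-fold, Psmd3 at 1.27-fold, Psmd7, the partner of Psmd14, at 1.17-fold and Psmd12 at 1.14-fold higher. Chaperones that assemble the base but leave the finished particle spanned as wide a range on fewer UMIs. Psmd10 had 36.8 UPM against 23.4 UPM (1.57-fold, 1.40 to 1.77), Psmd9 20.5 UPM against 15.2 UPM (1.35-fold, 1.16 to 1.57) and Psmd5 8.82 UPM against 7.73 UPM, with an interval of the ratio from 0.920 to 1.42 that included 1.

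The activators spanned nearly the whole range of the members, with its upper end in the PA28 pair. Psme2 (ENSMUSG00000079197, chromosome 14), which encodes PA28 beta, had 361 UPM in Tgfbr2-KO cells and 91.4 UPM in control cells, a ratio of 3.96 (3.75 to 4.18) and the highest of the members. Psme1 (ENSMUSG00000022216, chromosome 14), which encodes PA28 alpha, had 474 UPM against 181 UPM, a ratio of 2.62 (2.52 to 2.72). Psme3, the nuclear PA28 gamma, had 24.3 UPM against 18.5 UPM, a ratio of 1.31 (1.15 to 1.51). Psme4, the nuclear activator PA200, had 70.2 UPM against 67.6 UPM, a ratio of 1.04 (0.965 to 1.12) that included 1. The PA28 alpha and beta genes thus stood apart from the gamma and PA200 genes. Psme2b, a close paralog of Psme2 whose reads may be shared with it, had 8.98 UPM against 5.46 UPM (1.64-fold, 1.29 to 2.11). Psmc3ip had 4.43 UPM against 2.95 UPM (1.503-fold, 1.07 to 2.13). Psma8 had 30 UMIs in Tgfbr2-KO cells and 21 in control cells, with an interval of the ratio from 0.420 to 1.39.

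Each constitutive catalytic subunit was set beside the immunoproteasome subunit that takes its place. Psmb8, which replaces Psmb5, had 738 UPM in Tgfbr2-KO cells and 236 UPM in control cells. Psmb9, which replaces Psmb6, had 297 UPM against 72.8 UPM, and Psmb10, which replaces Psmb7, had 290 UPM against 103 UPM. Their ratios of 3.12, 4.08 and 2.82 were nearer to those of Psme1 and Psme2 (2.62 and 3.96) than to those of the constitutive partners, of which the highest was 1.55. Psmb8 accordingly made up 82.6% (82.2 to 83.1) of the UMIs of the Psmb8 and Psmb5 pair in Tgfbr2-KO cells and 70.1% (68.9 to 71.3) in control cells. For Psmb9 with Psmb6 the share was 57.3% (56.5 to 58.1) against 33.8% (32.2 to 35.4), and for Psmb10 with Psmb7 70.9% (70.1 to 71.7) against 54.7% (52.9 to 56.4). Capture can differ between genes, so these shares are read between pools and not as protein composition. Within CD206 low cells, defined next, Psmb8 made up 76.2% of its pair in Tgfbr2-KO against 70.9% in control cells, Psmb9 47.7% against 33.1% and Psmb10 61.4% against 55.8%. All 3 shares were thus higher in Tgfbr2-KO cells there too, by less than over all cells. In the C1q-low remainder the gaps were wider, with Psmb8 at 79.0% in Tgfbr2-KO against 57.7% in control cells, Psmb9 at 46.3% against 14.7% and Psmb10 at 69.4% against 47.5%. In interferon-activated cells, with 10 control cells, Psmb8 made up 85.1% in Tgfbr2-KO cells and 85.3% (74.6 to 92.7) in control cells, and Psmb9 62.5% and 66.0% (51.7 to 78.5), which did not differ beyond counting error. Like shares are not like levels: there Psmb8 stood at 1064 UPM in Tgfbr2-KO against 537 UPM in control cells (1.98-fold, 1.53 to 2.61). Psmb5 stood at 186 UPM against 92.6 UPM with a wide interval (2.01-fold, 1.09 to 4.19), on 10 UMIs in control cells.

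Because the pools differed in their mix of cells, levels were compared within states gated by marker genes. Gates were set on the UMIs of a marker list per 10000 UMIs of the cell, after the distributions of the markers had been seen. Cells high in C1q were split into interferon-activated (the 5 genes named above), Fn1 Gpnmb, CD206 high (Mrc1, Lyve1, Folr2, Cd163 and Cd209f) and the remaining CD206 low cells, which need not lack Mrc1. Cells low in C1q were split into classical monocytes, patrolling monocytes, dendritic cells and a remainder, and proliferating and structural cells were set aside first. Interferon-activated cells made up 22.1% (20.5 to 23.7) of Tgfbr2-KO cells, 591 in number, and 0.527% (0.253 to 0.968) of control cells, 10 in number. Classical monocytes made up 9.54% of Tgfbr2-KO and 1.74% of control cells, and CD206 low cells 28.6% of Tgfbr2-KO and 53.3% of control cells. CD206 high cells numbered 569 in the Tgfbr2-KO and 474 in the control pool.

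Over the states named here, proteasome levels spanned a wider range within each pool than between the pools over all cells. In the Tgfbr2-KO pool the 31 structural subunits stood at 2673 UPM in CD206 high, 3403 in CD206 low, 4919 in Fn1 Gpnmb, 5231 in interferon-activated cells and 6213 in classical monocytes. In the control pool they stood at 2523 UPM in CD206 high, 2943 in CD206 low, 3789 in Fn1 Gpnmb and 4732 in classical monocytes, so the order of these 4 states was the same and neighbouring intervals did not overlap in either pool. PA28 genes stood at 320 UPM in CD206 high, 455 in CD206 low, 509 in Fn1 Gpnmb, 1229 in interferon-activated cells and 1592 in classical monocytes of the Tgfbr2-KO pool. In control cells they stood at 231 UPM in CD206 high, 286 in CD206 low, 169 in Fn1 Gpnmb and 849 in classical monocytes, where Fn1 Gpnmb cells held least. The 10 control cells gated as interferon-activated stood at 3585 UPM for the structural subunits (3237 to 3960) and 723 UPM for PA28 (571 to 902).

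**Figure D2:**
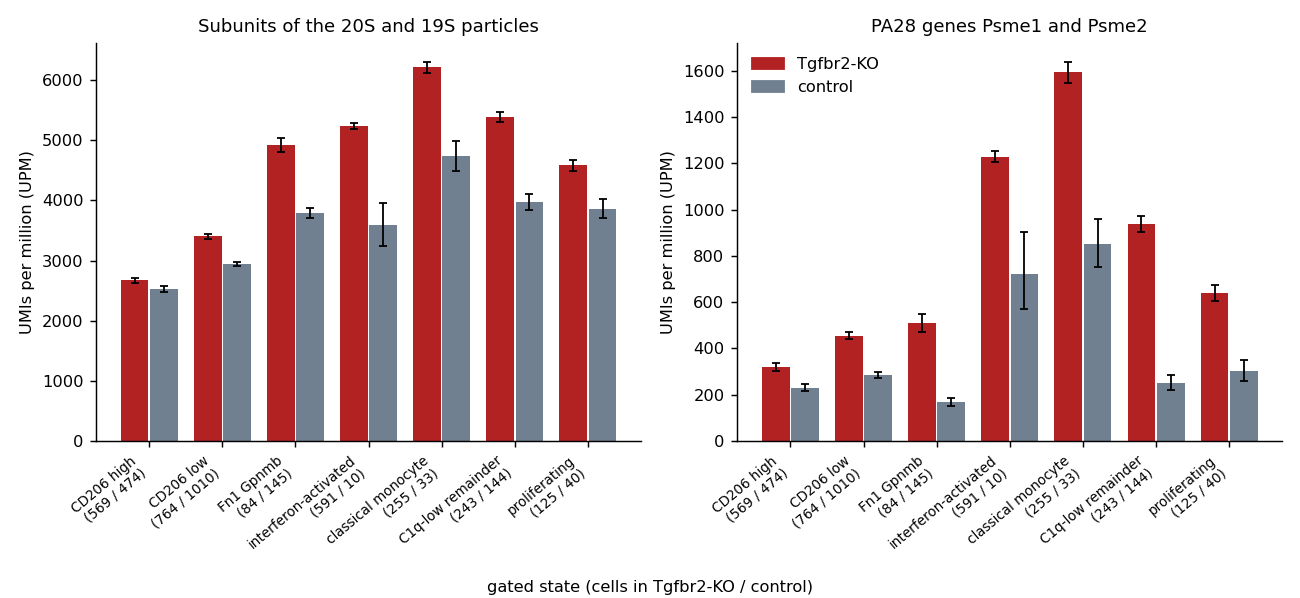
UPM of the 31 structural subunits (left) and of Psme1 and Psme2 (right) in 7 gated states, Tgfbr2-KO bars left of control bars, with exact 95% counting intervals and the number of cells under each state. In each of the 7 states both sums are higher in the Tgfbr2-KO pool, and CD206 high cells show the least difference for the structural subunits, 2673 UPM against 2523 UPM.

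Within the states that held at least 100 cells in both pools, the ratios between pools were below those over all cells, except that of PA28 in the C1q-low remainder. In CD206 high cells the structural subunits were 1.06-fold higher in the Tgfbr2-KO pool (1.03 to 1.09) and PA28 1.39-fold (1.28 to 1.51), while the 19S subunits alone had a ratio of 1.02 (0.980 to 1.06) that included 1. In CD206 low cells (764 Tgfbr2-KO and 1010 control) they were 1.16-fold (1.14 to 1.18) and 1.59-fold higher (1.51 to 1.68). In the remainder (243 Tgfbr2-KO and 144 control) they were 1.35-fold (1.31 to 1.40) and 3.73-fold higher (3.27 to 4.27). The 20S share of the structural UMIs was 62.1% in Tgfbr2-KO and 60.7% in control CD206 high cells. It was 64.2% against 63.2% in CD206 low cells, and the intervals of the pools overlapped in both states. In the remainder it was 64.4% against 57.9%, and in classical monocytes, with 33 control cells, 70.0% against 69.8%. The states were not alike in interferon-activated markers: in Tgfbr2-KO against control cells these summed to 146 UPM against 34.3 UPM in CD206 high, 149 UPM against 32.7 UPM in CD206 low and 3187 UPM against 31.0 UPM in the remainder. Median depth in the remainder was 13081 UMIs in Tgfbr2-KO cells and 4409.5 in control cells, so its values compare unlike cells. The part of the markers and of depth in these ratios was not tested.

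Gene by gene, few members passed 1.5-fold in the CD206 high and CD206 low states. In CD206 high cells 1 of 37 counted members was at least 1.5-fold higher, or 2.70%, where 5.56% of all genes were; it was Psma4, with 118 UPM in Tgfbr2-KO cells and 77.4 UPM in control cells (1.53-fold, 1.33 to 1.76). In CD206 low cells 2 of 38 were, or 5.26%, where 4.48% of all genes were; they were Psme2, with 149 UPM against 89.7 UPM (1.66-fold, 1.51 to 1.83), and Psme1, with 306 UPM against 196 UPM (1.56-fold, 1.46 to 1.67). These shares lie near or below the background. None was at least 1.5-fold lower, where 5.04% of all genes were in CD206 high and 2.12% in CD206 low cells. In CD206 high cells 4 of 37 were at least 25% higher, or 10.8%, where 15.8% of all genes were, and in CD206 low cells 5 of 38, or 13.2%, where 16.5% were. Both shares lie below those of all genes. The members were Psma4, Psma5, Psme1 and Psme2 in CD206 high cells, and these with Psmc5 in CD206 low cells. How many of all genes passed in both states was not counted, so the overlap is not read. None was at least 20% lower, where 13.2% of all genes were in CD206 high and 7.77% in CD206 low cells. Psma4 and Psma5 had the highest structural ratios over all cells, which include the cells of these states. The median log2 ratio of the members was 0.08 in CD206 high, beside 0.02 for all genes counted there, and 0.19 in CD206 low, beside 0.08. Psmd11 stood at 65.4 UPM in Tgfbr2-KO and 78.4 UPM in control CD206 high cells, 0.834 of the control level (0.713 to 0.975). Fn1 Gpnmb macrophages, with 84 Tgfbr2-KO and 145 control cells, were below the minimum of cells for these counts. Single members differed in both directions there. Psme2 had 208 UPM in Tgfbr2-KO against 58.6 UPM in control cells (3.54-fold, 2.85 to 4.43) and Psmb6 299 UPM against 169 UPM (1.78-fold, 1.53 to 2.06). Psme4 had 57.3 UPM in Tgfbr2-KO against 76.7 UPM in control cells, 0.748 of the control level (0.562 to 0.988). Median depth in this state was 15535 UMIs in Tgfbr2-KO and 12859 in control cells.

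In the remainder 13 of 37 counted members were at least 1.5-fold higher, or 35.1%, where 15.6% of all genes were, and 0 were lower, where 18.4% were. Psme2 had 457 UPM in Tgfbr2-KO cells and 115 UPM in control cells (3.99-fold, 3.29 to 4.89) and Psme1 478 UPM against 136 UPM (3.51-fold, 2.93 to 4.22). Psma5 had 197 UPM against 85.7 UPM (2.29-fold, 1.82 to 2.92) and Psma4 269 UPM against 132 UPM (2.04-fold, 1.69 to 2.48). The chaperone Psmd9 had 34.1 UPM against 10.3 UPM with a wide interval (3.30-fold, 1.73 to 7.09), and Psmd10 45.5 UPM against 20.6 UPM (2.20-fold, 1.37 to 3.72). The rest were Psmc4 (1.76-fold), Psmb6 (1.73-fold), Psmb2 (1.71-fold), Psma2 (1.68-fold), Psma7 (1.65-fold), Psmd6 (1.63-fold) and Psmd8 (1.51-fold). By the looser rule 23 of 37 were at least 25% higher, or 62.2%, where 28.2% of all genes were. Another 3 members were at least 20% lower, or 8.11%, where 30.1% of all genes were: Psme4 with 71.8 UPM against 97.0 UPM, Psmd11 with 114 UPM against 148 UPM and Psmd12 with 79.6 UPM against 102 UPM. The median log2 ratio was 0.47 for the members and -0.0046 for all genes counted in the remainder. Here too, members and all genes were not matched for UMIs.

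**Figure D3:**
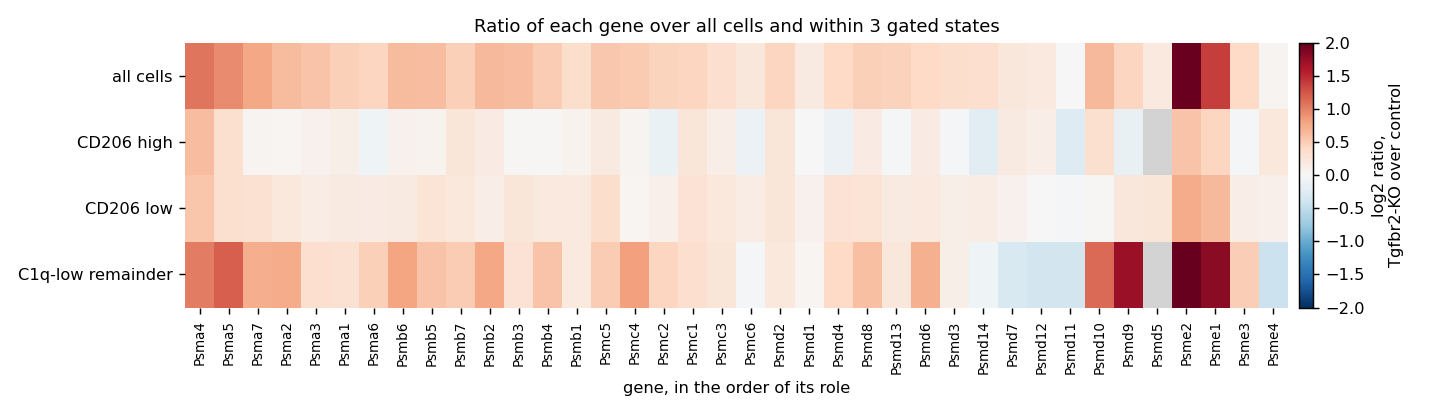
Log2 ratio, Tgfbr2-KO over control, of 38 members (columns, in the order of their role) over all cells and within the 3 states with at least 100 cells in both pools (rows). Red is higher in the Tgfbr2-KO pool, blue lower, and grey a gene with under 100 UMIs in the state. Psme1 and Psme2 are the deepest red over all cells and in the remainder, and most members are pale in the CD206 high and CD206 low rows.

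Cells were then ordered by their UMIs of the 5 interferon-activated markers, to set the proteasome genes against them in each pool. In cells with no UMI of these genes, 1031 Tgfbr2-KO and 1532 control cells of near equal depth (medians of 7609 UMIs in Tgfbr2-KO and 7460 in control cells), the structural subunits stood at 3126 UPM in Tgfbr2-KO and 3061 UPM in control cells, a ratio of 1.02 (1.01 to 1.04). The 19S subunits were at 1175 UPM in Tgfbr2-KO and 1179 UPM in control cells, a ratio of 0.997 (0.971 to 1.02), and the 20S subunits at 1951 UPM against 1882 UPM, a ratio of 1.04 (1.02 to 1.06). PA28 had a ratio of 1.255 (1.19 to 1.32), at 314 UPM in Tgfbr2-KO against 251 UPM in control cells. In these cells the difference between pools was thus small for the structural subunits and larger for PA28. Psma4 stood at 129 UPM against 104 UPM there, and Psma5 at 93.1 UPM against 83.2 UPM.

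Within the Tgfbr2-KO pool the summed levels were higher in each bin with more interferon marker UMIs. From 0 through over 0 to 5, 5 to 20, 20 to 80 and over 80 marker UMIs per 10000, the 20S subunits stood at 1951, 2457, 2955, 3785 and 4427 UPM. The 19S subunits stood at 1175, 1403, 1551, 1762 and 1911 UPM, a smaller spread. PA28 stood at 314, 488, 822, 1304 and 1802 UPM, and Psme2 alone at 99.9, 178, 319, 597 and 914 UPM. Psmd11 stood at 73.3, 74.6, 84.1, 93.9 and 99.8 UPM, also higher in each bin. Psme4 stood between 62.9 and 72.7 UPM, with its lowest level in the last bin. In control cells the first 3 bins held 1532, 331 and 27 cells, with PA28 at 251, 313 and 661 UPM and the 20S subunits at 1882, 1926 and 2360 UPM; the last 2 bins held 4 and 2 cells and are not read. Depth differed along these bins, with medians of 7609 UMIs in the first and 13964 in the last Tgfbr2-KO bin. Among Tgfbr2-KO cells of 8000 to 16000 UMIs alone, PA28 stood at 325 UPM in the first bin and 1923 in the last, and the 20S subunits at 1989 and 4518 UPM. Gated state was not held fixed along the bins either. In the Tgfbr2-KO pool the markers stood at 5011 UPM in classical monocytes, the state with 6213 UPM of structural subunits. In CD206 high cells, with 2673 UPM of structural subunits, they stood at 146 UPM. The part of state in the order of the bins was not tested. That order is a description of cells of 1 library and carries no test.

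**Figure D4:**
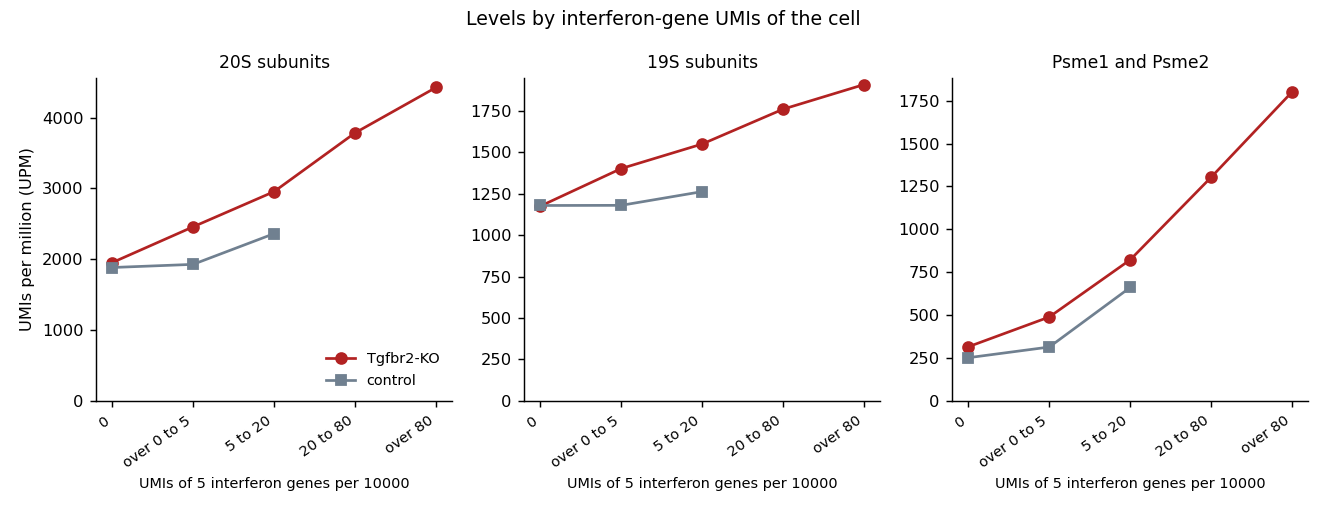
UPM of the 20S subunits, the 19S subunits and Psme1 with Psme2, by the number of UMIs of the 5 interferon-activated markers per 10000 UMIs of the cell, for Tgfbr2-KO cells (circles) and control cells (squares). Bins with under 20 cells are left out, and no error is drawn. The pools meet in the first bin for the 19S subunits (1175 UPM in Tgfbr2-KO and 1179 UPM in control cells), and Tgfbr2-KO cells reach 4427 UPM for the 20S subunits in the last.

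Leaving out the interferon-activated state gave smaller ratios. Over the remaining 2083 Tgfbr2-KO and 1886 control cells, the structural subunits stood at 4118 UPM in Tgfbr2-KO against 3080 UPM in control cells, a ratio of 1.34 (1.32 to 1.35), and PA28 at 676 UPM against 269 UPM, a ratio of 2.51 (2.42 to 2.59). Those cells still hold Tgfbr2-KO monocytes and remainder cells that carry interferon-activated markers, at 5011 UPM in classical monocytes and 3187 UPM in the remainder. Control classical monocytes, 33 cells, held these markers at 303.3 UPM.

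Proteasome levels also moved with the depth of a cell. In Tgfbr2-KO cells of up to 3000, 3000 to 6000, 6000 to 10000, 10000 to 15000 and over 15000 UMIs, the structural subunits stood at 1999, 2649, 3413, 4462 and 5252 UPM. In control cells of those depths they stood at 1707, 2639, 2892, 3296 and 3659 UPM, so deeper cells held a higher level in both pools. The ratio in each bin was 1.17 (1.002 to 1.37), 1.004 (0.964 to 1.04), 1.18 (1.16 to 1.20), 1.35 (1.33 to 1.38) and 1.44 (1.41 to 1.47). Between 3000 and 6000 UMIs no difference was thus detectable beyond counting error. PA28 stood at 282, 349, 578, 882 and 1011 UPM in Tgfbr2-KO cells, and at 101, 238, 280, 283 and 273 UPM in control cells, nearly level from 6000 UMIs on. The PA28 ratio was 2.80 (1.61 to 5.11), 1.47 (1.30 to 1.66), 2.06 (1.96 to 2.18), 3.12 (2.94 to 3.32) and 3.70 (3.44 to 3.99), above 1 in every bin. The part of depth in the ratios over all cells was not tested.

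**Figure D5:**
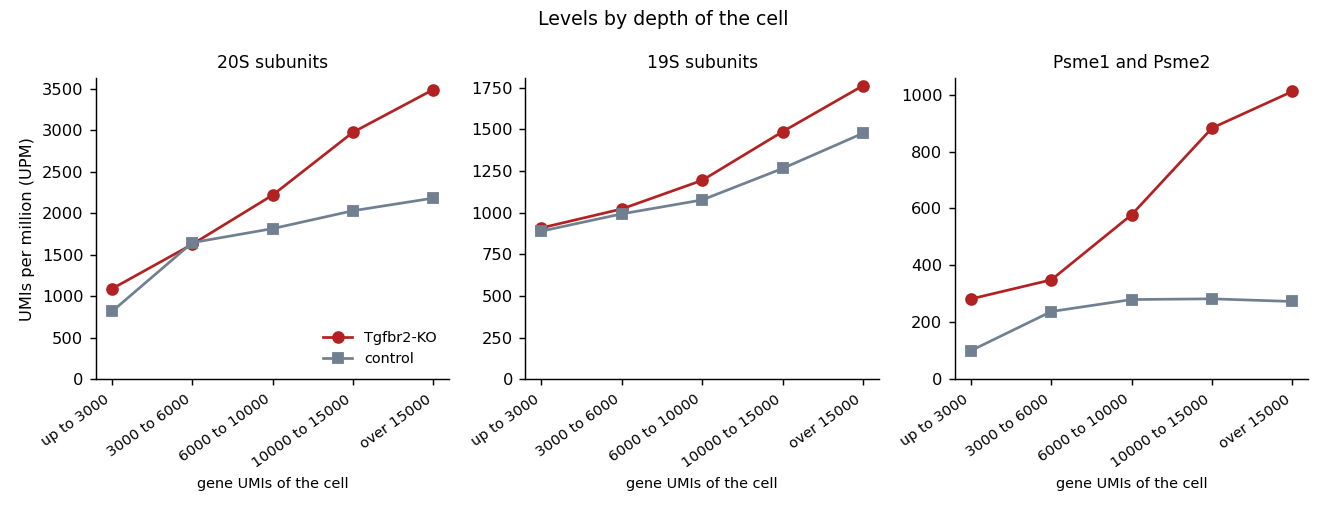
UPM of the 20S subunits, the 19S subunits and Psme1 with Psme2, by the gene UMIs of the cell, for Tgfbr2-KO cells (circles) and control cells (squares), with no error drawn. The 20S and 19S levels are higher in deeper cells of both pools, and PA28 in control cells goes from 101 UPM in the first bin to 280, 283 and 273 UPM in the last 3.

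To compare single cells at 1 depth, each cell was thinned to 3000 UMIs, which left out 83 Tgfbr2-KO and 80 control cells below that number. The median Tgfbr2-KO cell then held 11 UMIs of the structural subunits, with quartiles of 7 and 16, and the median control cell 8, with quartiles of 6 and 11. For the 20S subunits the median was 7 UMIs in Tgfbr2-KO and 5 in control cells, and for the 19S subunits 4 in Tgfbr2-KO and 3 in control cells. The quartiles of the pools overlapped, and they lay farther apart at the upper end than at the lower. Mean PA28 UMIs per thinned cell were 2.20 in Tgfbr2-KO and 0.786 in control cells.

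The members' levels were followed over 13 points, each a state of a pool with at least 30 cells. Of the members, Psmb5 had the pattern closest to that of the summed structural subunits (Pearson r of log2 UPM 0.98), with Psma2 at 0.97 and Psmb3, Psmd4 and Psma4 at 0.96; a subunit is part of the sum it is set against. The widest range over the points among the genes with ample UMIs was that of Psme2 (3.66 on the log2 scale), then Psme1 (2.93) and Psma4 (2.24). Psmd11 ranged over 1.16 with r of 0.54, and Psme4, which is not in the sum, over 0.75 with r of -0.0083. Among the 5186 genes with at least 1000 UMIs, the 5 non-members most alike were Ndufc1 (0.982), Ndufa11 (0.982), Uqcrq (0.981), Lamtor5 (0.979) and Ndufb6 (0.979). All points share 1 library and differ in depth, so these are descriptions.

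Genes of the pathway outside the members gave a mixed picture. Of 34 listed symbols 32 had a row, all 32 with enough UMIs to be counted, and 4 were at least 1.5-fold higher, or 12.5%, near the 11.9% of all genes, and 0 lower by that fold, where 7.53% of all genes were. By the looser rule 11 were at least 25% higher, or 34.4% against 27.0% of all genes, and 2 at least 20% lower, or 6.25% against 15.7%. Their median log2 ratio was 0.17, below that of the members. Ublcp1, a phosphatase that acts on the proteasome, had 18.1 UPM in Tgfbr2-KO cells and 8.28 UPM in control cells (2.18-fold, 1.80 to 2.65). Pomp, the maturation factor of the 20S core, had 382 UPM against 212 UPM (1.80-fold, 1.73 to 1.87), and Psmg4, an assembly chaperone of the alpha ring, 74.2 UPM against 47.1 UPM (1.58-fold, 1.45 to 1.71). Toward the other end were Zfand5, which binds ubiquitin and the proteasome, with 529 UPM in Tgfbr2-KO against 674 UPM in control cells, and the shuttle factor Ubqln2, with 15.2 UPM against 18.4 UPM. Assembly factors of the 20S core were thus toward the upper end of the list and these ubiquitin-binding factors toward the lower.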

How the data were processed

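The matrix comes from Cell Ranger 8.0.0, per the file headers. Seurat 5.1.0, Cell Ranger 8.0 and GRCm38 appear in the submitters' processing notes, without saying what Seurat did. The deposited matrix holds whole-number UMI counts for 22597 genes and 1172636 barcodes, without normalization and not filtered to cells. The deposited hashtag table gives the posterior probability of each hashtag state as a fraction, and the hashtag counts as log10 of the count plus 1, which matched the matrix within 8.9e-16.

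Cells with Assignment B0303 or B0301 and at least 1000 UMIs, 500 genes and at most 10% mitochondrial UMIs were kept, 4570 of 4671. The 96 hashtag multiplets were left out, and doublets within a hashtag were not removed. Python 3.11.15, numpy 2.4.6, scipy 1.17.1 and pandas 2.3.3 were used. Levels are UMIs summed over cells per 1000000 gene UMIs. Intervals are exact at 95% (Poisson for levels, conditional binomial for ratios, Clopper-Pearson for shares) and treat UMIs and cells as independent. The ratio and its interval were tried on simulated Poisson counts without spread between cells or mice. That checks the calculation and not the coverage in these data. Barcodes of at most 100 UMIs gave the free RNA profile. Gates, in marker UMIs per 10000, were 20 for structural, classical monocyte and C1q lists, 5 for dendritic and 10 for the others. A gene was counted from 100 UMIs over both pools and called at 1.5-fold, or by a looser rule from 25% higher or 20% lower. Full values are given for the catalytic subunits, Psmd4, Psmd14, the activators, the 3 highest and 3 lowest ratios and each member past 1.5-fold; of the pathway list the 3 highest and 3 lowest are named, except 1 gene that is not reported here. Alternatives covered the cell filter, assignment probability, scaling, thinning, weighting of cells and states, gates, UMI minimum and free RNA. Members and lists were chosen with earlier results of these data known. Gene positions and promoters are RefSeq's, GRCm38.p6.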

Additional observations from a re-analysis of the deposited data

Results flagged for a closer look

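Of the cells that entered no comparison, multiplets and blanks carried proteasome UMIs above the control level and below the Tgfbr2-KO level. The Tgfbr2-KO pool stood at 4439 UPM for the structural subunits and 835 UPM for PA28. The 95 cells called multiplet that passed the filter held the structural subunits at 3702 UPM (3609 to 3797), where the control pool stood at 3083 UPM, and Psme1 with Psme2 at 548 UPM, where it stood at 272 UPM. The 44 cells called blank held them at 3380 UPM (3161 to 3610) and 382 UPM (311 to 465). The 65 unassigned cells held the structural subunits at 2845 UPM (2701 to 2995), below the control level, and PA28 at 302.7 UPM (257 to 354), an interval that included the control level. Multiplets can hold cells of both pools, and the makeup of multiplets and blanks was not tested.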

How the results depend on the processing

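No result changed direction under any alternative, and 0 members were at least 1.5-fold lower over all cells under any of the 13. In log2, structural subunits and PA28 over all cells, 0.53 and 1.62, became 0.46 and 1.55 under trimmed-mean scaling, 0.47 and 1.48 thinned, 0.45 and 1.46 as a mean over cells, 0.42 and 1.33 without interferon-activated cells, 0.32 and 1.09 with 6 states weighted equally, and 0.55 and 1.66 with free RNA subtracted. In cells of 6000 to 10000 UMIs, an alternative chosen after seeing the data, they were 0.24 and 1.05. The 13 members called 1.5-fold higher became 6 under trimmed-mean scaling, 5 as a mean over cells, 7 without interferon-activated cells, 5 with states weighted equally and 4 in that depth window; over all settings where the count fell by more than 1.5 times, 10.53% to 17.5% of members passed, against 6.85% to 11.5% of all genes. The members' median, 0.47, became 0.27 with states weighted equally and 0.21 in that window. Trimmed-mean scaling lowers every log2 ratio by 0.068; the other causes were not tested.

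Within CD206 high, PA28 was 0.67 with doubled gates, against 0.47. Within CD206 low, structural subunits and PA28, 0.21 and 0.67, were 0.15 and 0.50 with halved gates and 0.27 and 0.83 with doubled gates, and structural subunits 0.17 as a mean over cells. In the remainder, structural subunits, 0.44, were 0.52 with doubled gates, 0.34 with the stricter cell filter, 0.36 thinned and 0.61 as a mean over cells, and PA28, 1.90, was 1.70 with the stricter filter and 2.39 as a mean over cells.

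No paired analysis was possible because each genotype is 1 pool. The design holds no error between mice, and members under 100 UMIs in a state were not counted there.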
